A study of Homo sapiens with 12 samples.

Results

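The tight junction genes described here are 9 genes of the deposited count table: the claudins CLDN1, CLDN11, CLDN12 and CLDN19, occludin (OCLN), tricellulin (MARVELD2), junctional adhesion molecule A (F11R), zonula occludens 1 (TJP1) and cingulin (CGN). They were chosen by name, and each of the 9 symbols was found on 1 line of the table, out of 40591 lines with a gene name and 60605 lines in all. The libraries came from ARPE-19, an established human cell line of the retinal pigment epithelium (RPE), the pigmented cell layer behind the retina. Polyadenylated RNA was sequenced in 12 libraries, 3 each of 4 groups labelled WT, GFP, GSTA4 and OSK. Per the series' design text the lines were stable and had expressed an open reading frame for 4 days: green fluorescent protein in GFP, the glutathione S-transferase GSTA4 in GSTA4, and, by the usual meaning of the abbreviation, the transcription factors OCT4 (POU5F1), SOX2 and KLF4 in OSK. The labels add nothing to WT, nor do they say how many independent lines or clones each group holds, or whether separate cultures stand behind its 3 libraries. The p-values therefore measure the spread between these libraries, which may be technical, and the effect of an open reading frame cannot be told apart from other differences between the lines.

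Tight junctions seal the space between neighbouring epithelial cells. Claudins form the strands and set which ions pass, occludin and tricellulin belong to the MARVEL family of membrane proteins, with tricellulin concentrated where 3 cells meet, and F11R is an immunoglobulin-type adhesion protein. On the inner face of the membrane TJP1 binds claudins, occludin and F11R and ties them to actin, while cingulin links the junction to the cytoskeleton and to regulators of the GTPase RhoA. In the RPE these junctions make up the outer blood-retina barrier, and claudin 19 is known as the main claudin of the differentiated human tissue.

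The 9 genes lie on 5 chromosomes (coordinates of GRCh38, GENCODE 29 gene spans). OCLN, at chr5:69492292-69558104 on the plus strand, and MARVELD2, at chr5:69415065-69444330 on the plus strand, are near neighbours. Chromosome 3 holds CLDN1 (chr3:190305701-190322475, minus strand) and CLDN11 (chr3:170418865-170454733, plus strand), and chromosome 1 holds CLDN19 (chr1:42733093-42740254, minus strand), CGN (chr1:151510510-151538692, plus strand) and F11R (chr1:160995211-161021348, minus strand). TJP1 lies at chr15:29699367-29968865 on the minus strand and CLDN12 at chr7:90383721-90513402 on the plus strand. Some exon bases are shared with another annotated gene of the same strand: 1853 of the 5066 exon bases of F11R, 683 of the 3732 of CLDN11 and 1195 of the 6741 of CLDN12. How reads on shared bases were assigned is not given in the sources used here, so the levels of F11R, CLDN11 and CLDN12 carry that uncertainty.

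RefSeq promoter windows (build GRCh38.p14) matched 7 of the 9 genes with 12 windows, and the 250 bases upstream of the start site were searched on both strands for 5 motifs. One window each of TJP1 (of 4), CLDN1 (its only one), CLDN11 (of 2) and CGN (its only one) is shown because these genes had their highest mean level in GSTA4 (TJP1), WT (CLDN1) or OSK (CLDN11 and CGN). Capitals mark the CACCC box bound by KLF factors and the E-box CACCTG bound by SNAI and ZEB factors, which read GGGTG and CAGGTG when on the opposite strand.
TJP1, chr15:29969050-29969299, minus strand: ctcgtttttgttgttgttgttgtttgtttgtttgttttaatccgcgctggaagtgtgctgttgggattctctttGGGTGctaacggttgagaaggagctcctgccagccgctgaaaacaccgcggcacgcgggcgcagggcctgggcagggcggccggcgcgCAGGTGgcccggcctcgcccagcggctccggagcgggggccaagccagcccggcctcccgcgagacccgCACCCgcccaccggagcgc
CLDN1, chr3:190322447-190322696, minus strand: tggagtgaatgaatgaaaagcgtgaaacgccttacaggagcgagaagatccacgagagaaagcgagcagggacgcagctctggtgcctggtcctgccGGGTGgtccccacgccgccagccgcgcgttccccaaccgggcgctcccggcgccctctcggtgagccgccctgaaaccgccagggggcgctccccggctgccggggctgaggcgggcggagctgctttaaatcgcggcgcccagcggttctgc
CLDN11, chr3:170418618-170418867, plus strand: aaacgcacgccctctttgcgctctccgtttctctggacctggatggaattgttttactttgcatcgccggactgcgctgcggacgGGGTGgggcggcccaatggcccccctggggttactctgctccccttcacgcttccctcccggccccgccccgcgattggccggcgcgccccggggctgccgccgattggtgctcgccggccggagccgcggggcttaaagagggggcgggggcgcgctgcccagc
CGN, chr1:151511137-151511386, plus strand: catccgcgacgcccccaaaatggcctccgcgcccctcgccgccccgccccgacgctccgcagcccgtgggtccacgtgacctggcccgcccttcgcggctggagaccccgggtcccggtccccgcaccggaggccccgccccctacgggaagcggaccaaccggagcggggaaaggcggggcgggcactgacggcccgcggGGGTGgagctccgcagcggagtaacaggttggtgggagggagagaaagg
CACCC was found in 9 of the 12 windows and in 6 of the 7 matched genes (all but CLDN12), beside 54.7% of 35116 RefSeq promoters of the same length. CACCTG was found in 3 windows, of TJP1 and OCLN, beside 17.5% of promoters. The octamer ATGCAAAT of POU factors, present in 1.63% of promoters, and the SOX core ACAATG, present in 9.29%, were in none of the 12 windows, and ACAAAG, present in 13.7%, was in 1, of CLDN11. G and C made up 66.8% (TJP1) to 76% (CGN) of the windows shown, beside a median of 58% over all promoters, while windows not shown went down to 34.8% in TJP1 and 48% in CLDN11. These matches describe letters only, since no binding or methylation was measured.

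Library totals ran from 12630675 to 17045454 counts, and 19488 to 22073 named genes had reads in 11 libraries, against 27349 in GFP replicate 1. The expressed factors marked their groups: GSTA4 averaged 416 CPM (counts divided by library size, which was scaled with TMM, in the usual counts-per-million unit) in the GSTA4 group against 8.79 in GFP, and POU5F1 averaged 779 CPM in OSK against 0.22 in GFP. Of 17 RPE markers, 13 or 14 averaged at least 1 CPM in each group, while RPE65, which defines the differentiated tissue, averaged 0.495 CPM or less in every group and TTR had no reads in GSTA4. The summed RPE markers lay at 3105 to 3303 CPM in WT, 2893 to 3314 in GFP, 2192 to 2214 in GSTA4 and 2401 to 2464 in OSK, and 12 mesenchymal markers at 1372 to 1740, 1592 to 1780, 1451 to 1637 and 1001 to 1034, with LUM without reads in all 4 groups. KRT8 (1247 CPM in WT, 843 in GFP and 501 in OSK) and EZR (658, 716 and 1004) are large parts of the RPE sum, which hides that the markers moved separately. Of 14 tested, 9 were higher and 2 lower in GFP against WT, where 22.2% of all genes passed. In GSTA4 against GFP 1 was higher and 9 lower (29.2% of all genes), and in OSK against GFP 2 were higher and 11 lower (45.9%). Against WT, 4 were higher and 8 lower in GSTA4 (38.6%), and 4 higher and 5 lower in OSK (45.4%). The mesenchymal sums also hide separate changes. Of 7 mesenchymal markers tested, 2 were higher and 3 lower in GSTA4 against GFP (29.2%). In OSK against GFP 1 was higher and 6 lower (45.9%). Between GFP and GSTA4, COL1A1 fell from 82.6 to 4.53 CPM and TAGLN from 126 to 10.8. VIM rose from 549 to 728 CPM and ACTA2 from 17.8 to 23.9. Sums of 8 endothelial markers were 73.1 to 97.2, 59.8 to 76.1, 36.7 to 39.8 and 24.4 to 27.8 CPM in WT, GFP, GSTA4 and OSK. Most of that sum was KDR alone, which averaged 79.2, 62.0, 37.2 and 23.4 CPM. PECAM1, CDH5, TEK, ERG and CLDN5 averaged at most 0.394 CPM in any group. ESAM averaged 2.33 CPM in WT and 0.991 in OSK, whereas VWF averaged 0.249 and 2.04. Sums of 9 pluripotent cell markers were at most 4.94 CPM in any library, with NANOG without reads in OSK. The part of all these markers in the results below was not tested.

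After a filter on low counts, 8 of the 9 genes and 15179 genes in all were tested with edgeR's quasi-likelihood test; CLDN19 did not pass the filter. At an adjusted p under 0.05 (Benjamini-Hochberg over all 15179 genes), 7 of the 8 differed somewhere among the 4 groups, where 66.9% of all genes tested did, and CLDN12 was the exception (adjusted p = 0.200). In GSTA4 against GFP, 5 of the 8 passed, 2 higher and 3 lower, where 29.2% of all genes did. In OSK against GFP 5 also passed, again 2 higher and 3 lower, where 45.9% did. The median size of the log2 fold change over the 8 genes was 0.46 in GSTA4 against GFP and 0.47 in OSK against GFP, beside 0.22 and 0.31 over all genes tested. Both contrasts use the same 3 GFP libraries. The genes were chosen with earlier results of these data known, which the shares and medians over all genes do not allow for. GFP against WT called 1 of the 8 (CLDN1, lower), where 22.2% of all genes passed. In GSTA4 against WT 4 of the 8 passed, 2 higher and 2 lower, where 38.6% of all genes did, 19.7% higher and 19% lower. In OSK against WT 5 passed, 2 higher and 3 lower (45.4% of all genes), and in OSK against GSTA4 4 passed, 2 higher and 2 lower (47.8%). Groups whose libraries stood fully apart were found for 5 of the 8 in GSTA4 against GFP, where 42.3% of all genes tested had them, for 5 in OSK against GFP (54.7%), 2 in GFP against WT (34.6%), 5 in OSK against GSTA4 (58%), 6 in GSTA4 against WT (49%) and 5 in OSK against WT (53.5%). As these are bulk libraries, fewer cells carrying a transcript and less of it per cell cannot be told apart.

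**Figure D1:**
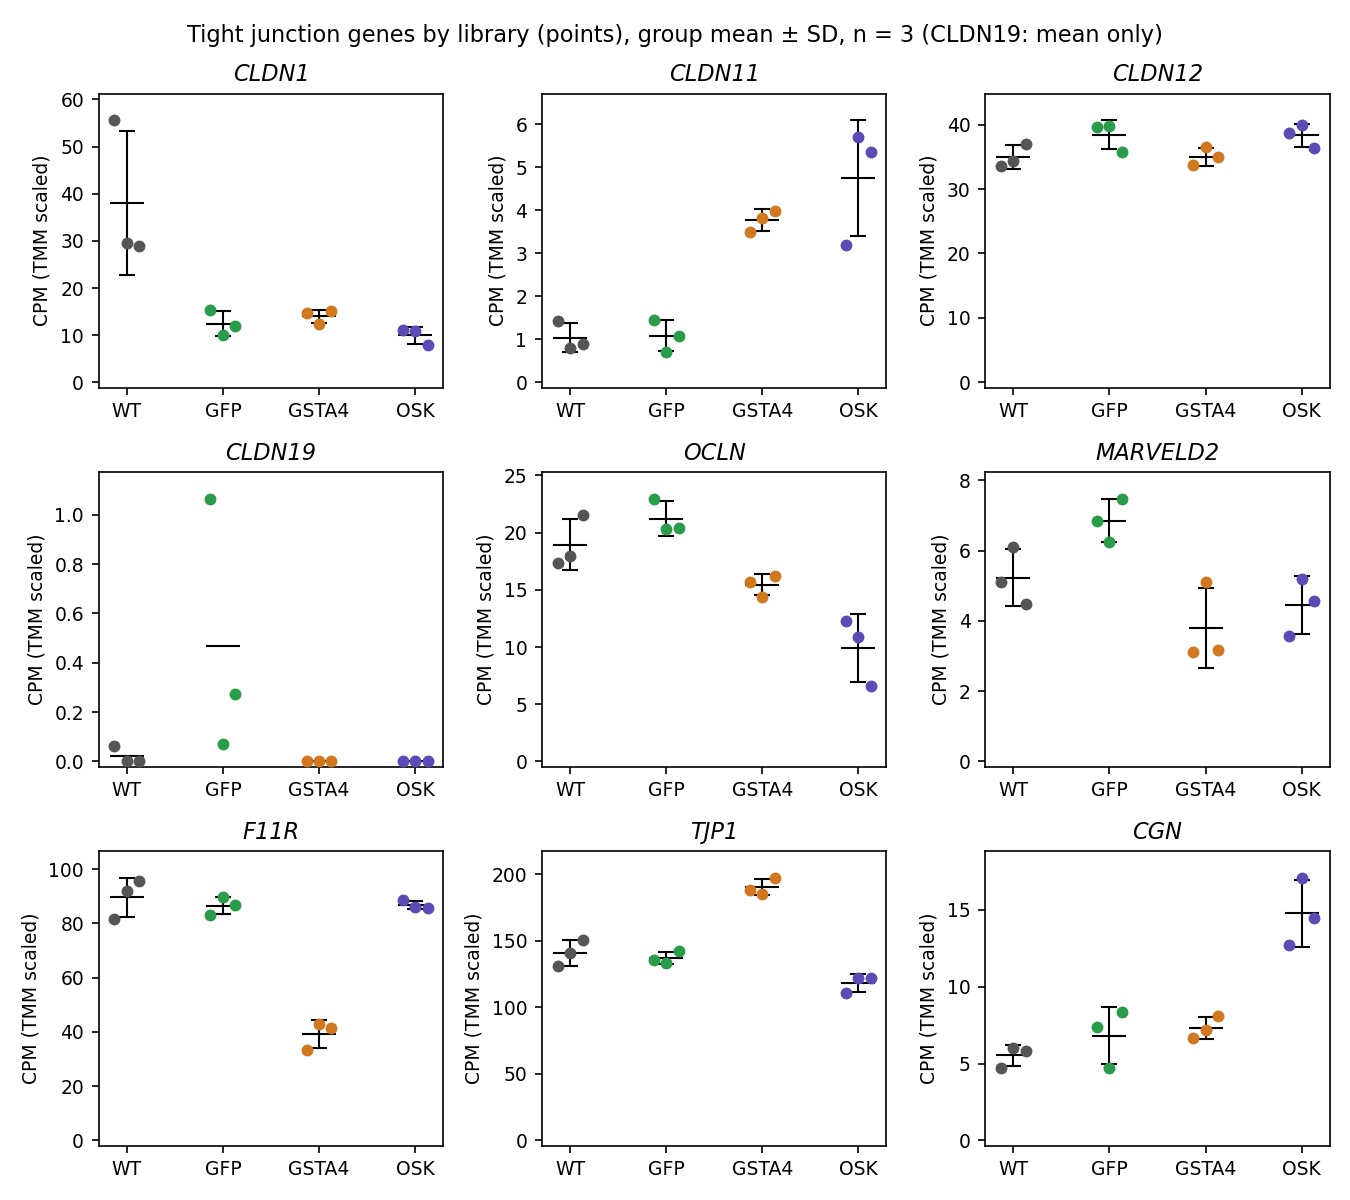
CPM of each of the 9 genes in each library (points; vertical axis linear, a separate scale per gene), with the group mean and SD (n = 3; the mean alone for CLDN19), for WT, GFP, GSTA4 and OSK. F11R sits at 33.4 to 42.8 CPM in the GSTA4 libraries and at 81.7 or more in all others, CGN stands highest in OSK, and CLDN1 stands highest in WT.

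Among the claudins, CLDN1, a barrier-forming claudin of many epithelia, was lower in all 3 lines that expressed an open reading frame than in WT. The level was 55.7, 29.5 and 28.97 CPM in the WT libraries, 15.3, 10.1 and 12.02 in GFP, 14.6, 12.5 and 15.1 in GSTA4 and 11.03, 10.95 and 7.88 in OSK. WT replicate 1 stood above the other 2 WT libraries, and all 3 WT libraries stood above all 9 others. The log2 fold change was -1.61 (SE 0.21) in GFP against WT (edgeR adjusted p = 1.54e-05) and -1.24 without WT replicate 1. It was -1.44 in GSTA4 against WT (edgeR adjusted p = 1.03e-05) and -1.93 in OSK against WT (edgeR adjusted p = 1.79e-07). Among the 3 lines the levels were not called different. GSTA4 against GFP gave 0.18 (95% interval -0.28 to 0.64) and OSK against GFP -0.32 (-0.80 to 0.16), intervals that allow a change in either direction. In OSK against GSTA4 the libraries did not overlap, and the log2 fold change of -0.50 had an edgeR adjusted p of 0.0759 (0.00138 to 0.287 over the alternatives run, so that the call depends on the processing).

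CLDN11, a claudin known from myelin and from the seminiferous epithelium, was low in WT and GFP and several-fold higher in GSTA4 and OSK. It had 23, 11 and 15 reads in WT and 19, 10 and 16 in GFP, against 55, 51 and 58 in GSTA4 and 45, 90 and 76 in OSK. As CPM, the WT libraries stood at 1.43, 0.81 and 0.89, the GFP libraries at 1.44, 0.72 and 1.09, the GSTA4 libraries at 3.49, 3.83 and 3.99, and the OSK libraries at 3.20, 5.70 and 5.35. Every GSTA4 and OSK library stood above every WT and GFP library. The rise over GFP was 1.80 on the log2 scale (SE 0.33, edgeR adjusted p = 2.64e-04) in GSTA4 and 2.13 (SE 0.32, edgeR adjusted p = 1.42e-05) in OSK. OSK and GSTA4 overlapped, with a difference of 0.34 (95% interval -0.23 to 0.91, edgeR adjusted p = 0.333).

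CLDN12, a claudin tied to paracellular calcium transport, held a narrow range in all 12 libraries. The WT libraries held 33.6, 34.3 and 36.99 CPM, the GFP libraries 39.7, 39.9 and 35.8, the GSTA4 libraries 33.7, 36.5 and 34.95, and the OSK libraries 38.6, 39.9 and 36.4. The groups overlapped in every pair, and no contrast passed. The 95% intervals of its log2 fold change ran from -0.30 to 0.03 in GSTA4 against GFP and from -0.17 to 0.16 in OSK against GFP, so these libraries bound any change to about those sizes.

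CLDN19, the claudin typical of differentiated RPE, was at the edge of detection. It had 1, 0 and 0 reads in the WT libraries, 14, 1 and 4 in GFP and none in any GSTA4 or OSK library. With 3 counts taken as the floor, a group without reads may still hold up to 0.0688 CPM in GSTA4 and 0.0681 CPM in OSK. Most of the GFP reads came from GFP replicate 1, the library with 27349 genes detected, whose part in this difference was not tested. With the filter left out, GSTA4 against GFP had an edgeR adjusted p of 0.0342 and OSK against GFP one of 0.0225, while DESeq2 gave no adjusted p for the first and 0.0556 for the second.

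OCLN fell in OSK and, by less, in GSTA4. The GFP libraries held 23.0, 20.3 and 20.4 CPM and the WT libraries 17.4, 17.99 and 21.5, against 15.7, 14.4 and 16.2 in GSTA4 and 12.3, 10.9 and 6.61 in OSK. No GSTA4 or OSK library reached any WT or GFP library, and the OSK libraries lay below the GSTA4 ones. OSK lay below GFP by -1.09 on the log2 scale (SE 0.16, edgeR adjusted p = 8.88e-06), and OSK against GSTA4 gave -0.64 (edgeR adjusted p = 0.00255), or -0.40 without OSK replicate 3, the lowest library. GSTA4 against GFP gave -0.45 (SE 0.15, edgeR adjusted p = 0.0276, ranging from 0.00182 to 0.110 over the alternatives run). That call was lost without GFP replicate 1 (0.110) and without GSTA4 replicate 1 (0.0652), 2 (0.104) or 3 (0.0518). Against WT, which the 3 GSTA4 libraries also lay below, the GSTA4 value of -0.30 did not pass (edgeR adjusted p = 0.130).

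MARVELD2, the tricellular member of the same family, was also lower in both lines than in GFP. Its CPM was 6.84, 6.24 and 7.47 in GFP, 3.11, 5.10 and 3.16 in GSTA4, 3.56, 5.19 and 4.57 in OSK and 5.10, 6.09 and 4.48 in WT. Neither GSTA4 nor OSK overlapped GFP, while both overlapped WT. The log2 fold change against GFP was -0.86 (SE 0.22, edgeR adjusted p = 0.00535) in GSTA4. In OSK it was -0.62 (SE 0.22, edgeR adjusted p = 0.0228, ranging from 0.0121 to 0.113 over the alternatives run); the call was lost with DESeq2 (0.0519), without GFP replicate 3 (0.0796) and without OSK replicate 1 (0.113). Against WT neither line passed, with -0.46 in GSTA4 (edgeR adjusted p = 0.108, ranging from 0.0233, without GSTA4 replicate 2, to 0.311) and -0.22 in OSK (edgeR adjusted p = 0.430).

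F11R was lower in GSTA4 than in every other group, and OSK was not called different from GFP. The GSTA4 libraries held 33.4, 42.8 and 41.5 CPM. The other 9 held 81.7, 91.9 and 95.5 in WT, 83.2, 89.6 and 87.0 in GFP and 88.5, 85.9 and 85.8 in OSK. The log2 fold change was -1.15 (SE 0.084) in GSTA4 against GFP (edgeR adjusted p = 1.32e-09), -1.20 against WT (edgeR adjusted p = 5.39e-10) and 1.15 in OSK against GSTA4 (edgeR adjusted p = 3.59e-10). In OSK against GFP it was 0.00 (95% interval -0.16 to 0.17).

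TJP1 moved the opposite way in GSTA4. This central scaffold held 188, 185 and 197 CPM in the GSTA4 libraries, against 135, 133 and 142 in GFP, 131, 140.4 and 150.5 in WT and 111, 122 and 122 in OSK. All 3 GSTA4 libraries stood above all 9 others, and all 3 OSK libraries stood below them. GSTA4 against GFP gave 0.47 (SE 0.062, edgeR adjusted p = 6.57e-06) and GSTA4 against WT 0.44 (edgeR adjusted p = 1.17e-05). OSK was lower by less: the log2 fold change was -0.21 against GFP (SE 0.063, edgeR adjusted p = 0.00922) and -0.25 against WT (edgeR adjusted p = 0.00263). Without OSK replicate 1 the value against GFP was -0.16 and did not pass (edgeR adjusted p = 0.0741, ranging from 5.31e-04 to 0.0741 over the alternatives run). OSK against GSTA4, which sets these groups side by side, gave -0.69 (edgeR adjusted p = 1.15e-08).

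CGN rose in OSK. The OSK libraries held 12.7, 17.1 and 14.5 CPM, against 7.38, 4.73 and 8.36 in GFP, 6.67, 7.21 and 8.12 in GSTA4 and 4.73, 6.02 and 5.84 in WT. No OSK library overlapped any other. The log2 fold change was 1.11 (SE 0.18, edgeR adjusted p = 3.60e-05) over GFP, 1.01 (edgeR adjusted p = 7.91e-05) over GSTA4 and 1.42 (edgeR adjusted p = 1.86e-06) over WT. GSTA4 against GFP gave 0.10 (95% interval -0.30 to 0.50). TJP1 and CGN, both cytoplasmic plaque proteins, thus differed from GFP in opposite directions in OSK.

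**Figure D2:**
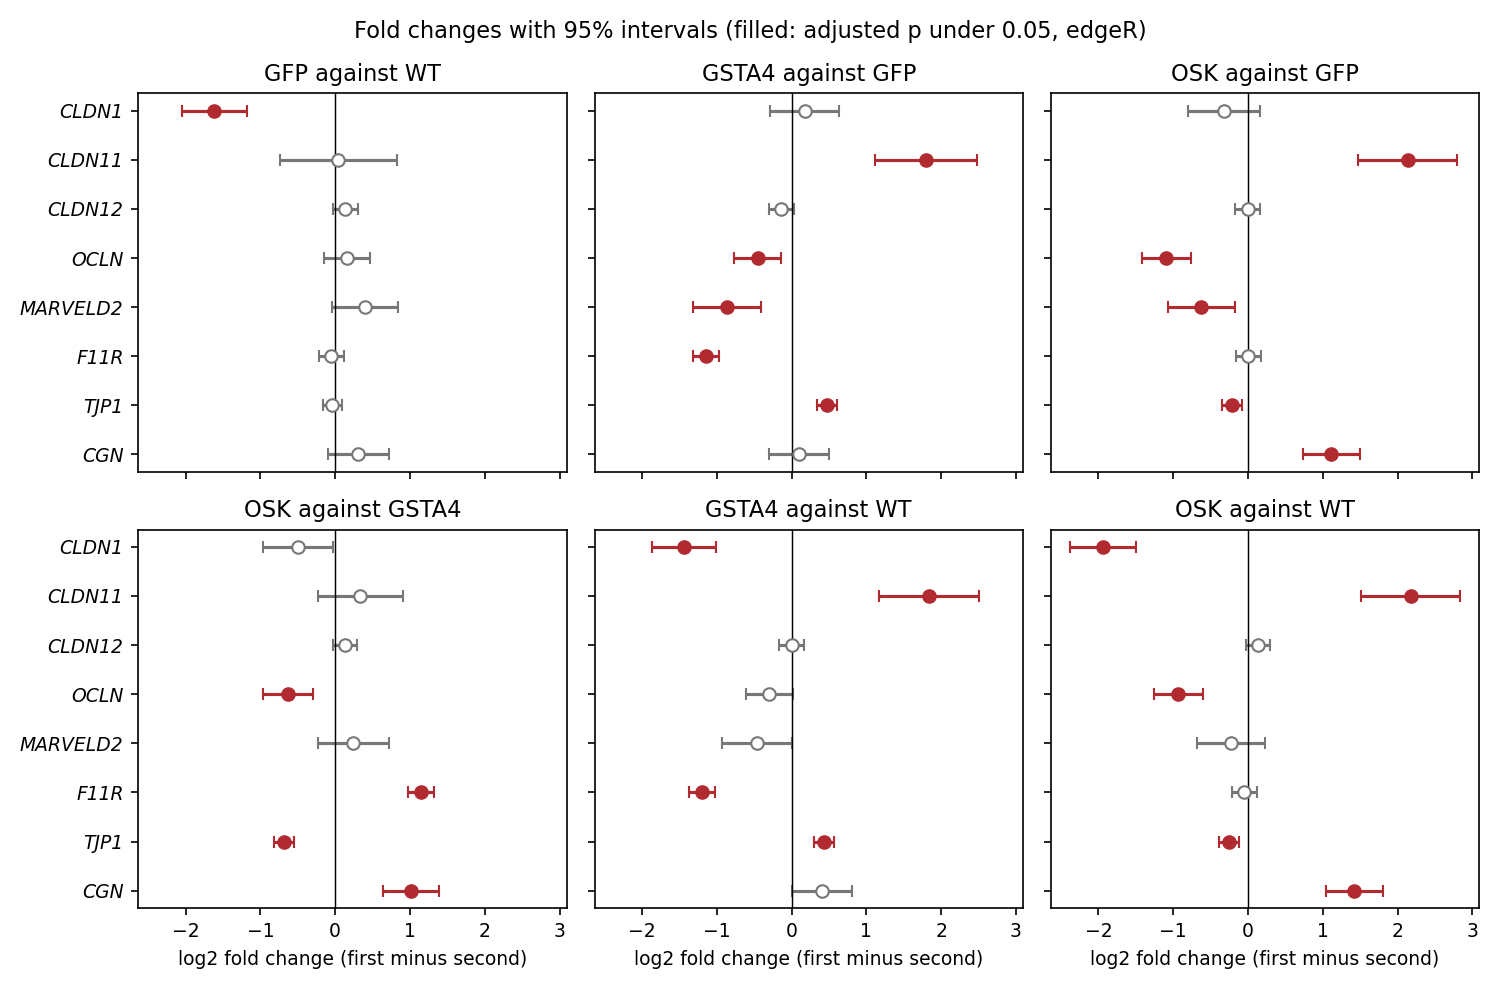
Log2 fold changes of the 8 tested genes (horizontal axis) with their 95% intervals (bars) in all 6 contrasts, filled where the edgeR adjusted p is under 0.05. F11R is at -1.15 in GSTA4 against GFP and at 0.00 in OSK against GFP, while CLDN11 is at 1.80 and 2.13.

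Per kilobase of exon, which allows genes to be set against each other, F11R and TJP1 were the most abundant of the 9, with means over the 12 libraries of 14.9 and 13.01 CPM per kb. CLDN12 at 5.44 and CLDN1 at 5.09 were the leading claudins among the 9, followed by OCLN at 2.42, CGN at 1.30, MARVELD2 at 0.946, CLDN11 at 0.713 and CLDN19 at 0.034. CLDN15, outside the 9, was not put on this scale. Its CPM exceeded that of CLDN1 in GFP, GSTA4 and OSK (27.5, 29.2 and 22.7 against 12.5, 14.0 and 9.95). The order of the 9 was not the same in each group. F11R stood above TJP1 in WT (17.7 ± 1.42 and 12.5 ± 0.863, SD, n = 3), in GFP (17.1 ± 0.636 and 12.2 ± 0.413) and in OSK (17.1 ± 0.306 and 10.5 ± 0.576), but below it in GSTA4 (7.74 ± 1.01 and 16.9 ± 0.548). CLDN1 stood at 10.4 ± 4.17 CPM per kb in WT and CLDN12 at 5.19 ± 0.266, whereas in GFP CLDN1 stood below CLDN12, at 3.40 ± 0.714 and 5.70 ± 0.341. CGN and MARVELD2 lay within their spread of each other in WT (0.836 ± 0.106 and 0.974 ± 0.151) and apart in OSK (2.23 ± 0.331 and 0.828 ± 0.154).

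**Figure D3:**
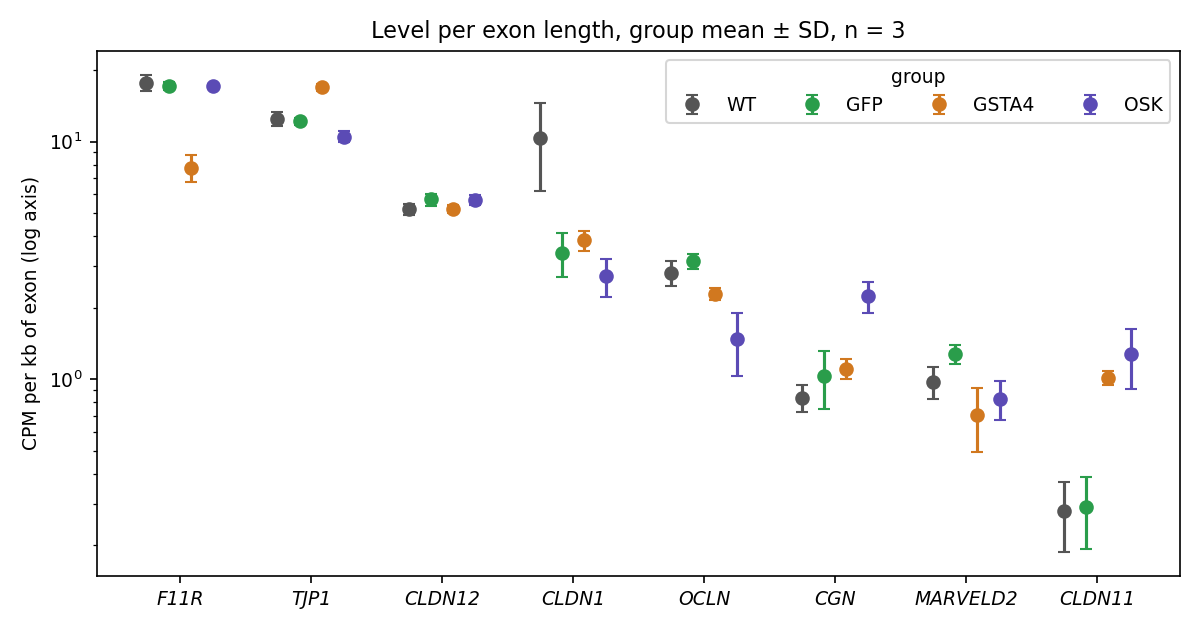
Mean CPM per kb of exon (log axis) with SD (n = 3) of the 8 tested genes in the 4 groups, ordered by the mean over all 12 libraries. F11R and TJP1 lead, and their order turns in GSTA4, where TJP1 stands at 16.9 and F11R at 7.74.

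The wider claudin family was sparse in these cells: 11 of 24 claudins passed the filter, among them CLDN1, CLDN11 and CLDN12. Of the 11, 1 was higher and 0 lower in GSTA4 against GFP, CLDN11 being the higher one, with the family's median log2 fold change at 0.09 and that of all genes at 0.01; over all genes 14.7% were higher and 14.6% lower. In OSK against GFP 2 were higher, CLDN11 and CLDN20, and 2 lower, CLDN3 and CLDN9 (median -0.28, all genes -0.02), where 23.1% of all genes were higher and 22.8% lower. Against WT, GSTA4 had 1 higher and 3 lower, the lower ones CLDN1, CLDN9 and CLDN24 (median -0.14), where 19.7% of all genes were higher and 19% lower. OSK had 2 higher and 6 lower than WT (median -0.51), where 22.7% of all genes were higher and 22.7% lower. The 6 were CLDN1, CLDN3, CLDN4, CLDN9, CLDN15 and CLDN24. CLDN15, an ion-pore claudin, was the most counted of the 8 beyond those described, with 32.2 ± 6.79 CPM (SD, n = 3) for WT, 27.5 ± 1.40 for GFP, 29.2 ± 2.28 for GSTA4 and 22.7 ± 1.64 for OSK. It was lower in OSK than in WT, at -0.51 (edgeR adjusted p = 0.00141). OSK against GSTA4 gave -0.37 (edgeR adjusted p = 0.0156), which did not pass without GSTA4 replicate 1, OSK replicate 1 or OSK replicate 3 (0.00231 to 0.0789 over the alternatives run), and OSK against GFP gave -0.28 (edgeR adjusted p = 0.0644).

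CLDN20 had 22, 53 and 50 reads in the OSK libraries against 12, 11 and 7 in those of GFP, or 1.96 on the log2 scale (edgeR adjusted p = 0.00204). CLDN3 stood at 0.588 ± 0.0388 CPM in OSK against 1.55 ± 0.609 in GFP, or -1.37 on the log2 scale (edgeR adjusted p = 0.0103), which did not pass without GFP replicate 1 (0.00567 to 0.0728 over the alternatives run). CLDN9 gave -1.52 in OSK against GFP (edgeR adjusted p = 0.0102), which did not pass without OSK replicate 3 (0.00216 to 0.0575). CLDN4 gave -0.98 in OSK against GSTA4 (edgeR adjusted p = 0.0227), which did not pass with DESeq2 or without GSTA4 replicate 3, OSK replicate 2 or OSK replicate 3 (0.0161 to 0.105); OSK against GFP gave -0.68 (edgeR adjusted p = 0.121). In OSK against WT, CLDN3 gave -1.71, CLDN4 -1.30 and CLDN9 -2.52 (edgeR adjusted p = 0.00152, 0.00297 and 5.69e-05). Those calls held in every alternative run. In GSTA4 against WT, CLDN9 gave -1.11 (edgeR adjusted p = 0.0228, 0.00733 to 0.0968 over the alternatives run). That call was lost without WT replicate 3, GSTA4 replicate 1 or GSTA4 replicate 2. CLDN18, CLDN23 and CLDN24 passed in neither contrast with GFP, and each averaged under 2.67 CPM in all groups. CLDN24 was lower than WT in GSTA4 (-2.15, edgeR adjusted p = 0.0158, 0.00158 to 0.0658 over the alternatives run). In OSK against WT it gave -1.59 (edgeR adjusted p = 0.0456, 0.00792 to 0.167). The levels in this paragraph are all low beside CLDN12 and CLDN15. CLDN7, named after its values were seen and not tested, had 6, 9 and 18 reads in OSK against 1 in all of GFP.

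Of the other membrane proteins of the junction, 9 of 11 passed the filter. In GSTA4 against GFP 0 were higher and 4 lower, with a median of -0.36, where 14.7% of all genes were higher and 14.6% lower. In OSK against GSTA4 6 were higher and 0 lower, with a median of 0.75 beside -0.01 over all genes, of which 24.1% were higher and 23.8% lower. Against WT, GSTA4 had 0 higher and 5 lower (19.7% and 19% of all genes), and OSK had 4 higher and 3 lower (22.7% and 22.7%). The count lower in OSK ranged from 0 to 3 over the alternatives run. It changed with DESeq2, without the filter, without WT replicate 1 or 2, without OSK replicate 1, 2 or 3, and without GFP replicate 1 and WT replicate 1. CXADR, an adhesion protein also known as a virus receptor, fell from 173 ± 1.88 CPM in GFP to 111 ± 3.88 in GSTA4 (log2 fold change -0.64, edgeR adjusted p = 4.56e-07). CRB3, an apical polarity protein, fell from 5.20 ± 0.872 to 1.51 ± 0.317 CPM (-1.79, edgeR adjusted p = 4.12e-05) and was also lower in OSK (-1.25, edgeR adjusted p = 5.13e-04). In OSK against GFP 4 of the 9 were higher and 1 lower, where 23.1% of all genes were higher and 22.8% lower. BVES, an adhesion protein of the junction, rose from 20.8 ± 0.736 to 34.5 ± 1.90 CPM (0.73, edgeR adjusted p = 1.50e-05), and ILDR2, an angulin of tricellular junctions, from 0.468 ± 0.387 to 3.75 ± 0.241 CPM (3.01, edgeR adjusted p = 1.98e-05).

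The scaffolds and polarity proteins, all 21 of which were tested, leaned the other way in OSK: against GFP 2 were higher and 12 lower (median -0.34; 23.1% and 22.8% of all genes), against GSTA4 3 were higher and 12 lower (median -0.45; 24.1% and 23.8%), and against WT 3 were higher and 14 lower (median -0.38; 22.7% and 22.7%). In GSTA4 the list had no common direction, with 3 higher and 5 lower against GFP (median -0.02; 14.7% and 14.6% of all genes) and 5 higher and 2 lower against WT (median 0.06; 19.7% and 19%). The count lower against WT was 2 to 5 over the alternatives run and changed by over 1.5 times without WT replicate 1. TJP1 and CGN are not among the 21. MPDZ, a multi-PDZ scaffold, rose in GSTA4 from 218 ± 3.95 to 312 ± 23.8 CPM (0.51, edgeR adjusted p = 9.84e-07) and was lower in OSK (-0.68, edgeR adjusted p = 8.63e-09), the pattern of TJP1. PARD3B, a PAR3-type polarity protein, went the opposite way, with -0.49 in GSTA4 (edgeR adjusted p = 3.29e-06) and 0.75 in OSK (edgeR adjusted p = 2.15e-09). PRKCZ, an atypical protein kinase C of the PAR complex, stood at 13.1 ± 1.17 CPM in OSK against 38.0 ± 2.29 in GFP (-1.54, edgeR adjusted p = 2.20e-11). PRKCI, the more counted kinase of that type in the list, stood at 82.2 ± 2.31 CPM in OSK against 101 ± 3.03 in GFP (-0.30, edgeR adjusted p = 0.00133).

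In GFP against WT, PATJ, another multi-PDZ scaffold, was higher (0.40, edgeR adjusted p = 5.04e-04), and AMOTL2, an angiomotin, gave -0.22 (edgeR adjusted p = 0.00931), which did not pass in a fit of the 6 compared libraries alone (0.0545).

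Of 16 regulators 15 were tested: 2 were higher and 0 lower in GSTA4 against GFP, where 29.2% of all genes passed, and 6 were higher and 3 lower in OSK against GFP, where 45.9% did. YBX3, the Y-box factor known to bind TJP1, rose in OSK (0.62, edgeR adjusted p = 1.02e-07), and CDK4, a cell cycle kinase known as its partner, fell (-0.59, edgeR adjusted p = 1.95e-07). MICALL2, an effector of the GTPase RAB13 in junction transport, was lower in GFP than in WT (-0.91, edgeR adjusted p = 2.32e-05). ROCK1, a kinase of the RhoA pathway, gave -0.31 in the same contrast (edgeR adjusted p = 0.0103), not passing without GFP replicate 2 (0.0797). ARHGEF11, an exchange factor for RhoA, and RAB13 gave 0.20 and 0.36 in GSTA4 against GFP (edgeR adjusted p = 0.0215 and 0.0286). Leaving out 1 library ended both calls, ARHGEF11 without GFP replicate 3 or GSTA4 replicate 1 and RAB13 without GFP replicate 1, GFP replicate 2 or GSTA4 replicate 1 (up to 0.140 and 0.135 over the alternatives run).

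**Figure D4:**
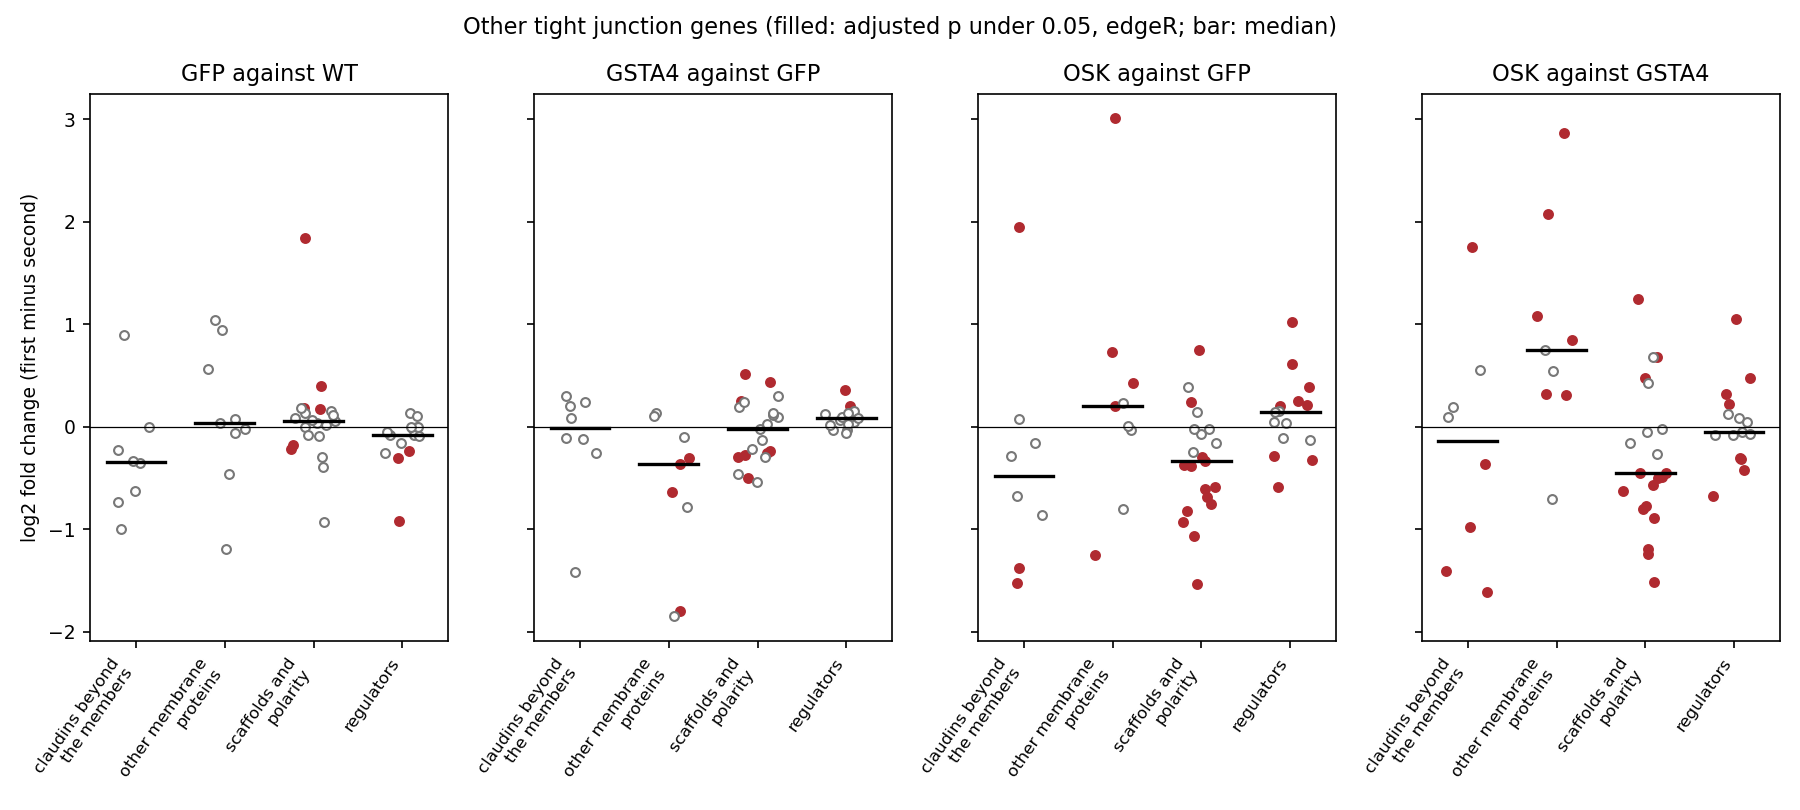
Log2 fold changes (vertical axis) of the tested tight junction genes beyond the 9, in 4 gene lists and 4 contrasts; each point is a gene, filled where the edgeR adjusted p is under 0.05, and bars are medians. The other membrane proteins have 4 genes lower and 0 higher in GSTA4 against GFP, and the scaffolds 12 lower and 2 higher in OSK against GFP.

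The genes whose log2 CPM followed each of the 8 most closely over the 12 libraries were read off as a description, since all share the 4 groups. TJP1 ran with TGFB2 (Pearson r = 0.986) and FLNC (0.981), and among tight junction genes with MPDZ (0.914). F11R ran with BMP6 and ST3GAL1 (both 0.979) and with LSR (0.930), the angulin of tricellular junctions. CLDN11 ran with SERPINB1 (0.990) and CDH10 (0.975), and its nearest tight junction gene was CGN (0.749).

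CGN itself ran with LMAN1 (0.967), ACTR2 (0.959) and YBX3 (0.904). OCLN ran with MAP2K4 (0.969), ZC4H2 (0.946) and AFDN (0.852), and CLDN1 with SYP (0.967), LURAP1L (0.965) and CLDN9 (0.815). For MARVELD2 the values were lower, with FTCD at 0.884, SHISA8 at 0.876 and CRB3 at 0.849. CLDN12, which varied least, had SLC30A7 at 0.887 and CLDN18 at 0.667.

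OCLN and MARVELD2 lie close together, and 14 tested genes have their place within 1 Mb of OCLN. Of these, 0 were higher and 2 lower in GSTA4 against GFP, CCNB1 and MARVELD2, where 29.2% of all genes passed, and 3 were higher and 5 lower in OSK against GFP, where 45.9% did. Around TJP1, 2 of 11 tested neighbours were higher (APBA2 and FAN1) and 1 lower (MTMR10) in GSTA4 against GFP, where 29.2% of all genes passed. The median log2 fold change was 0.49 over the 11, beside 0.47 for TJP1 and 0.01 over all genes. In GFP against WT 2 were higher and 3 lower (median -0.15), where 22.2% of all genes passed. APBA2 and FAN1 were among those lower in GFP. In GSTA4 against WT 4 were higher and 1 lower (median 0.22), where 38.6% of all genes passed. In OSK against GSTA4 1 was higher and 3 lower (median -0.57), where 47.8% did. No test of the neighbours as a group was run.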

How the data were processed

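Polyadenylated RNA of 12 ARPE-19 libraries was sequenced after library preparation with a NEBNext Ultra II kit, per the labels. The authors deposited whole-number read counts per gene in 1 table, with no normalization. The submitters' processing notes name STAR 2.7.1a, featureCounts 1.6.2 and the builds GRCh38, hg38, GRCm38 and mm10, without saying which tool or build made which value; the annotation release and strand setting are not given in the sources used here. Lines without a gene name (0.485 to 0.822% of counts) were left out.

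Counts were scaled with TMM, filtered with filterByExpr by group, and tested with edgeR 4.0.16 in R 4.3.3 (glmQLFit, glmQLFTest) in 1 fit of all 12 libraries that held only the group means, giving 6 pairwise contrasts and an F test, with Benjamini-Hochberg adjustment over 15179 genes and a threshold of 0.05. Standard errors are the log2 fold change divided by the root of F, and intervals cover 95%. Floors of 3 counts cover counting error only. CPM per kb used GENCODE 29 exon lengths, which may not be the authors' annotation.

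Tested on simulated data for GSTA4 against GFP (14811 genes), the procedure recovered 67.2% of genes changed by 0.5 on the log2 scale, 76.1% at 1 and 98.5% at 2, with 7 false calls of 168. The simulation changed 200 genes and gave every gene the same spread (coefficient of variation 7.91%), whereas 29.2% of genes passed in the real contrast. These rates may therefore not hold for genes that vary more. Samples were grouped by title. The genes and lists were chosen with earlier results of these data known. Beyond the 9 genes the text names each further claudin that passed the filter, and, per list and contrast with GFP or WT, up to 2 genes with the lowest adjusted p at a mean of at least 1 CPM without overlap between groups. It also names the 2 genes most correlated with each of the 8 (1 such gene is not reported here) and the closest in the lists; others are named where stated or to illustrate a result. The alternatives tried were DESeq2 1.42.0, a replicate block, a fit of the 6 compared libraries, each library left out in turn, scaling by RLE or by library size only, and filtering not at all or on a mean of 1 CPM.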

Additional observations from a re-analysis of the deposited data

How the results depend on the processing

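The numbers of the 9 genes past the threshold ranged from 4 to 6 in GSTA4 against GFP, 3 to 6 in OSK against GFP, 1 to 1 in GFP against WT and 4 to 5 in OSK against GSTA4 over the alternatives run; leaving out 1 library gave 3 to 5 in OSK against GFP, with 3 without OSK replicate 1. Of 664 alternative log2 values of the 8 tested genes, 622 kept direction and call, 8 lost it, 4 gained it and 30 changed sign, all of the 30 being values that passed in neither fit. For CLDN12 in OSK against GFP these were 0.0053 with RLE scaling, 0.015 without the filter, 0.0099 with DESeq2 and 0.013 without GFP replicate 1 and WT replicate 1, an alternative chosen after seeing the data. For CLDN12 in GSTA4 against WT they were -0.0070 with RLE scaling, -0.0031 with library size alone, -0.0048 without the filter, -0.0038 at a mean of at least 1 CPM, -0.0083 with DESeq2, -0.0081 with 6 libraries and -0.033 without those 2 libraries. For F11R in OSK against GFP they were -0.070 with library size alone, -0.015 at a mean of at least 1 CPM, -0.0058 with 6 libraries and -0.032 without those 2 libraries. Leaving out 1 library gave -0.048 to 0.036 for CLDN12 and -0.025 to 0.032 for F11R in OSK against GFP, -0.029 to 0.045 for CLDN12 in GSTA4 against WT, -0.11 to 0.0015 for F11R in OSK against WT, -0.091 to 0.011 for TJP1 and -0.21 to 0.34 for CLDN11 in GFP against WT, and -0.11 to 0.27 for CGN in GSTA4 against GFP; the cause was not tested. With library size alone the share of higher calls over all genes was 39.8% for OSK against GFP (50.4% with TMM), 42.5% for OSK against GSTA4 (50.3%) and 41.1% for OSK against WT (50.1%). Same-numbered libraries of different groups deviated together little, with a median correlation of 0.021 over 18 pairs, beside -0.012 over 36 pairs of different number. Of these, 1 of the 18 and 0 of the 36 correlated above 0.1, and 5 of 12 libraries correlated best with their own number. So small a difference in few libraries cannot decide whether the numbers mark a weak pairing. The replicate block left 5 genes past the threshold in GSTA4 against GFP and 5 in OSK against GFP. With it, CLDN1 was called in OSK against GSTA4 (-0.49, edgeR adjusted p = 0.0163). In the low-count genes CLDN11 and CLDN19 depth limits what can be seen.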

Other observations

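The adherens junction, which holds neighbouring cells together below the tight junction, had 11 of 12 core genes tested. In GSTA4 against GFP 3 were higher and 4 lower, where 29.2% of all genes passed, and in OSK against GFP 4 were higher and 5 lower, where 45.9% did. The following genes were named after their values were seen. CDH1 (E-cadherin) averaged 16.04 ± 4.36 CPM (SD, n = 3) in GFP, 3.26 ± 1.61 in WT, 0.215 ± 0.156 in GSTA4 and 0.526 ± 0.406 in OSK. CDH2 (N-cadherin) stood far above CDH1, at 261 ± 6.34 CPM in GFP, 311 ± 21.5 in WT, 261 ± 9.21 in GSTA4 and 136 ± 6.98 in OSK. Against GFP, CDH2 gave 0.01 in GSTA4 (edgeR adjusted p = 0.961) and -0.94 in OSK (edgeR adjusted p = 1.27e-10). NECTIN1, an immunoglobulin-type adhesion protein of that junction, stood at 31.0 ± 3.51 CPM in GFP, 18.1 ± 0.620 in GSTA4 (log2 fold change -0.78, edgeR adjusted p = 3.01e-06) and 68.2 ± 3.28 in OSK (1.13, edgeR adjusted p = 1.47e-09). CTNNB1 (beta-catenin) was higher in GSTA4 (0.38, edgeR adjusted p = 2.24e-05) and lower in OSK (-0.18, edgeR adjusted p = 0.0124), the directions also measured for TJP1. Other core genes differed from that pattern. Against GFP, CTNNA1 was higher in GSTA4 (0.22, edgeR adjusted p = 0.00527) and in OSK (0.40, edgeR adjusted p = 4.83e-06). JUP was lower in GSTA4 (-0.20, edgeR adjusted p = 0.0408) and in OSK (-0.75, edgeR adjusted p = 4.66e-08).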
